A study of Homo sapiens with 9 samples.

Results

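The genes described here encode the proteins of the mitochondrial ribosome and were followed after depletion of the transcription factor FOSL1 in cholangiocarcinoma cells. They were chosen by name alone: every protein-coding gene whose symbol begins with MRPL or MRPS followed by a number, with symbols found through the stable gene identifiers. This gave 78 of the 58381 genes in the count tables, 49 named MRPL and 29 named MRPS. All 78 had a count in at least 1 library and 75 passed the filter on low counts, which left 12814 genes to test.

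Mitochondria keep a small genome and translate its messages on their own ribosome, whose RNAs are encoded in the mitochondrion and whose proteins are all encoded in the nucleus and imported. The large subunit carries the peptidyl transferase centre and the exit tunnel, and the small subunit reads the codons. Many of the proteins have a counterpart in the bacterial ribosome, whereas others are found only in mitochondria. The products of this ribosome in human cells are membrane subunits of the respiratory chain and of ATP synthase.

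Cells were EGI-1, an established line from a human cholangiocarcinoma, a cancer of the bile ducts. All cells carried a TET-inducible short hairpin RNA and received doxycycline at 2 ug per ml for 4 days, with 24 hours of seeding before harvest. The groups were FOSL1sh3 and FOSL1sh10, with different hairpins against FOSL1, and GFPsh, with a control hairpin, and each had 3 libraries. The labels do not say whether a group is a clone or a pool, nor whether its libraries came from separate cultures, so p-values reflect the spread among libraries, and that spread may be technical only. Libraries were made with MARS-seq, a low-input method that tags transcripts near their 3′ ends, so a count comes mostly from the last exon. In bulk RNA, fewer cells of a type and less RNA per cell cannot be told apart.

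FOSL1, an AP-1 subunit, had 72.3, 70.3 and 44.9 CPM (counts relative to the library total as scaled by TMM, edgeR's correction for composition) in FOSL1sh3 and 70.9, 57.1 and 65.8 CPM in FOSL1sh10, against 303, 257 and 182 CPM in GFPsh. All hairpin libraries lay below all controls, and the log2 fold changes were -1.98 and -1.94 (SE 0.20 each, edgeR adjusted p = 1.2e-05 and 1.0e-05). Libraries held between 6893026 and 10604251 counts, and 3 counts, the limit that a count of 0 allows, equal 0.283 to 0.435 CPM, for counting error only. Of 10 biliary and epithelial markers 8 passed the filter, with a summed level of 10946 to 13589 CPM, whereas SPP1 had at most 1 count and ONECUT1 had none. The summed leukocyte markers reached at most 9.37 CPM in any library, those of fibroblast and endothelial cells 9.58 CPM and those of hepatocytes 17.6 CPM, and CD3E, COL3A1 and CYP3A4 were at 0 throughout. Hepatocyte markers summed to 9.44 ± 1.89 CPM in FOSL1sh3 and 15.2 ± 2.08 CPM in FOSL1sh10, against 6.63 ± 0.588 CPM in GFPsh (SD, n = 3), and those of fibroblast and endothelial cells and of leukocytes were also highest on average in FOSL1sh10. Among single markers, SERPINA1 and KRT7 were higher with FOSL1sh10 (log2 fold change 1.27 and 0.71, edgeR adjusted p = 0.00141 and 0.00456). SERPINA1 was the only 1 of 7 hepatocyte markers tested. KRT7 was also called with FOSL1sh3 (0.46, edgeR adjusted p = 0.0432), a call kept under 4 of 14 alternatives. Of the 8 biliary markers, 6 lay above 0 and 2 below with FOSL1sh10, and 5 above and 3 below with FOSL1sh3. Between hairpins, KRT19 was called higher with FOSL1sh3, and SOX9 and EPCAM lower. The part of these differences in the results was not tested. Genes encoding cytosolic ribosomal proteins took 24.9%, 25% and 24.8% of counts in FOSL1sh3 and 21.9%, 18.7% and 19.4% in FOSL1sh10, against 22.3%, 23.6% and 23.3% in GFPsh.

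In control cells the mRNAs of the mitochondrial ribosome covered a wide range of levels, although their proteins assemble into a common particle. Per kilobase of exon, the highest mean in GFPsh was that of MRPL14, a large-subunit protein at the interface of the subunits, at 394 ± 43 CPM per kb (mean ± SD, n = 3 here and below). MRPL51, MRPL41 and MRPL36, all of the large subunit, followed at 291 ± 41.4, 270.1 ± 25.2 and 253 ± 36.8 CPM per kb, and MRPS21 of the small subunit stood at 241 ± 27.2 CPM per kb. Neighbours among these 5 genes had overlapping SD ranges, except MRPL14 and MRPL51. The lowest tested genes were MRPL42 at 0.470 ± 0.00239, MRPS18A at 1.48 ± 0.0735, MRPS11 at 2.28 ± 0.515, MRPL50 at 2.63 ± 0.506 and MRPS17 at 3.66 ± 0.148 CPM per kb. MRPL42 has 16393 bases of annotated exon, the length by which its counts were divided. Because a 3′ count comes mostly from the last exon, it need not grow with exon length, and this order depends on annotated length. MRPL14, with 959 bases, had a mean count over the 9 libraries of 3537, below the 4137 of MRPL52, which has 3213 bases. None of the 5 highest and 5 lowest genes per kb was called in FOSL1sh3 or FOSL1sh10 against GFPsh.

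**Figure D1:**
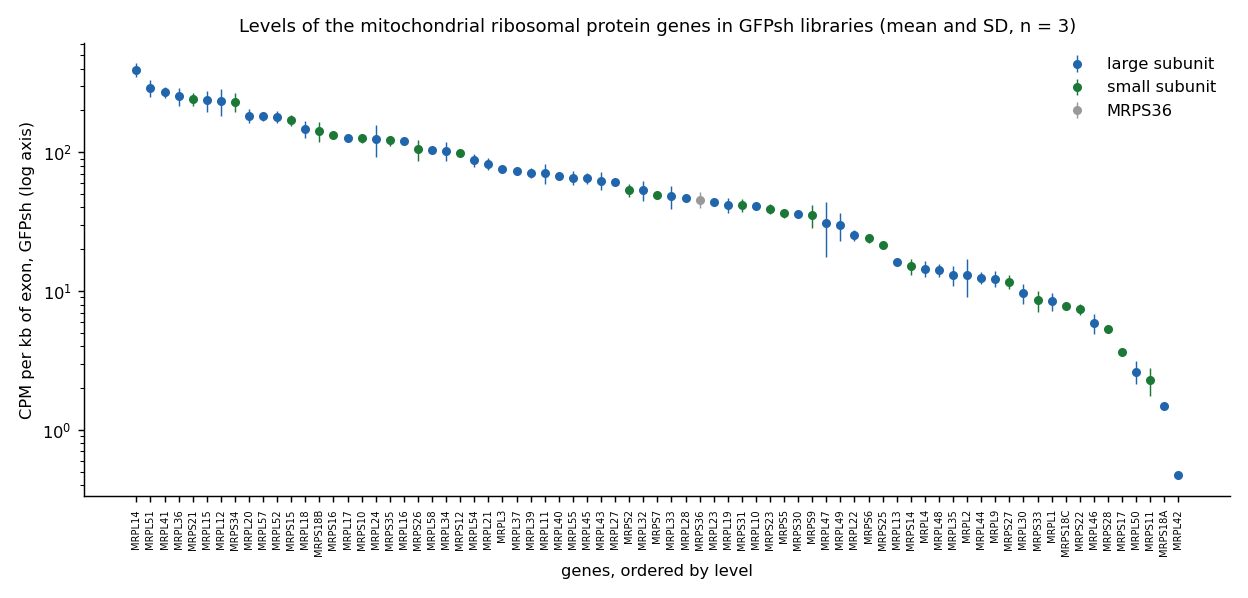
Level of the 75 tested genes in the 3 GFPsh libraries, as CPM per kb of exon on a log axis (points: mean; bars: SD), in falling order and coloured by subunit. Genes of both subunits are spread along the whole range, from MRPL14 at 394 CPM per kb to MRPL42 at 0.470 CPM per kb. With 3′ counts this order depends on annotated exon length.

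Counts of the family moved in part with where a gene lies. Counting was by exon without regard to strand, and reads that fall on exons of more than 1 gene are dropped under the counter's default settings, which the command in the file headers leaves in place. Of the 78 genes, 40 shared exon bases with another annotated gene and 38 shared none. In 11 genes more than 50% of the last 500 exonic bases, where 3′ reads fall, were shared, and their median over genes of the mean count was 181, against 1261 for the other 67 genes. All 3 genes that failed the filter were among the 11. MRPL38 (chromosome 17, bases 75898643 to 75905413), with 99.6% of that stretch shared, had 1, 3 and 1 counts in FOSL1sh3 and 5, 3 and 4 in FOSL1sh10, against 3, 3 and 4 in GFPsh. MRPL53 (chromosome 2, bases 74471958 to 74473322) shares 73.4% with CCDC142 and had 2, 4 and 2 counts in FOSL1sh3 and 4, 4 and 7 in FOSL1sh10, against 1, 5 and 1 in GFPsh. MRPS24 (chromosome 7, bases 43866558 to 43869893) shares 85.0% with the read-through gene URGCP-MRPS24, and had 5, 6 and 4 counts in FOSL1sh3 and 8, 8 and 15 in FOSL1sh10, against 1, 8 and 15 in GFPsh. These counts are near the floor of 3 in many libraries, and a low count here does not give the level of the mRNA. MRPS18A, whose product sits in the large subunit despite its name, shares 100% of the stretch with RSPH9 on the opposite strand and passed the filter at 2.29 ± 0.391 CPM in FOSL1sh3, 2.09 ± 0.564 CPM in FOSL1sh10 and 1.91 ± 0.0944 CPM in GFPsh. The pattern was not uniform: MRPS16, with 79.8% shared, averaged 2992 counts. MRPL42, MRPS11, MRPL50 and MRPS17, among the lowest tested genes per kb, shared 0% of their last 500 exonic bases. In addition, 36 of the 78 genes have pseudogene loci in the annotation that can take or share reads, among them MRPS17 with 4, MRPS31 with 4 and MRPS35 with 2, and the values of such genes are uncertain to that extent.

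**Figure D2:**
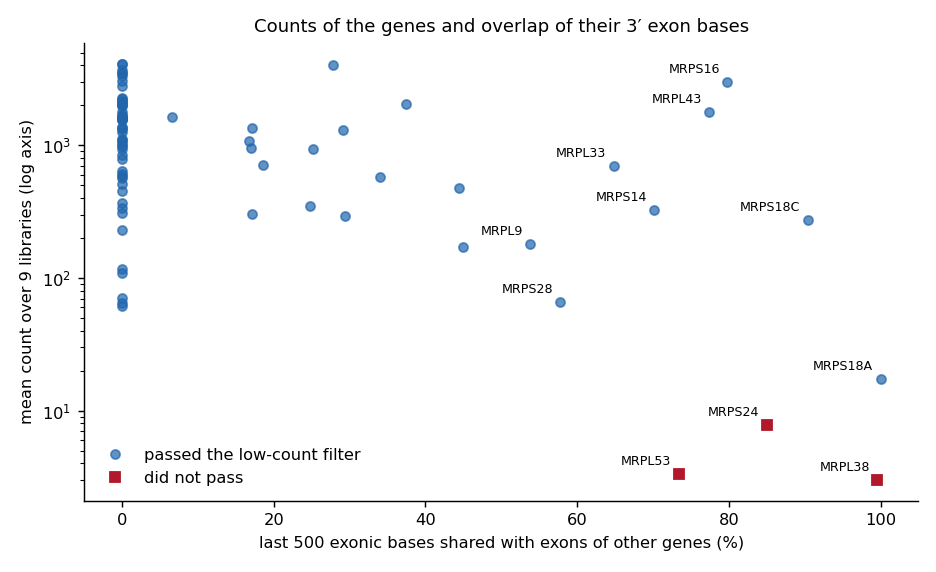
Mean count over the 9 libraries (log axis) against the share of the last 500 exonic bases that lies on exons of other genes, 1 point per gene. The 3 squares, MRPS24, MRPL53 and MRPL38, did not pass the low-count filter and all lie beyond 50%, but MRPS16 and MRPL43 lie there too at 2992 and 1783 counts.

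With FOSL1sh3, 10 of the 75 tested genes were called against GFPsh at an edgeR adjusted p under 0.05, 9 lower and 1 higher; over all genes tested 10.9% were called, 5.65% lower and 5.21% higher. The 9 lower genes are 12% of those tested and the higher gene is 1.33%. The median log2 fold change of the 75 genes was -0.10, against 0.01 over all genes, with 48 genes below 0 and 27 above. The FOSL1sh3 libraries lay wholly below the controls for 17 genes (22.7%, against 14.5% of all genes) and wholly above them for 2 (2.67%, against 14.7%). No fold change of the 75 reached a factor of 2 on either side, the extremes being -0.69 for MRPS35 and 0.51 for MRPL58 on the log2 scale.

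With FOSL1sh10, only MRPL58 and MRPL45 were called, both higher (2.67% of the 75 genes; over all genes 5.28% were called, 3.13% higher and 2.15% lower). In this fit no gene was called lower, though 1 to 2 were under 5 of the alternatives (MRPS10 among them in each), and 4 were lower and 4 higher at an unadjusted p under 0.05 (5.33% each, against 9.36% lower and 10.1% higher over all genes). The share called higher was near that of all genes. The median log2 fold change was -0.08, against 0.00 over all genes, with 46 genes below 0 and 29 above; with library totals alone in place of TMM it turned to 0.02, against 0.11 over all genes. The libraries did not overlap the controls for 12 genes below (16.0%, against 13.0%) and 5 above (6.67%, against 14.3%).

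With both hairpins averaged against GFPsh, 3 genes were called, MRPL58 higher and MRPS35 and MRPS10 lower (1.33% and 2.67% of the 75 genes; over all genes 6.22% were called, 3.25% higher and 2.97% lower). The median was -0.10, against -0.01 over all genes.

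**Figure D3:**
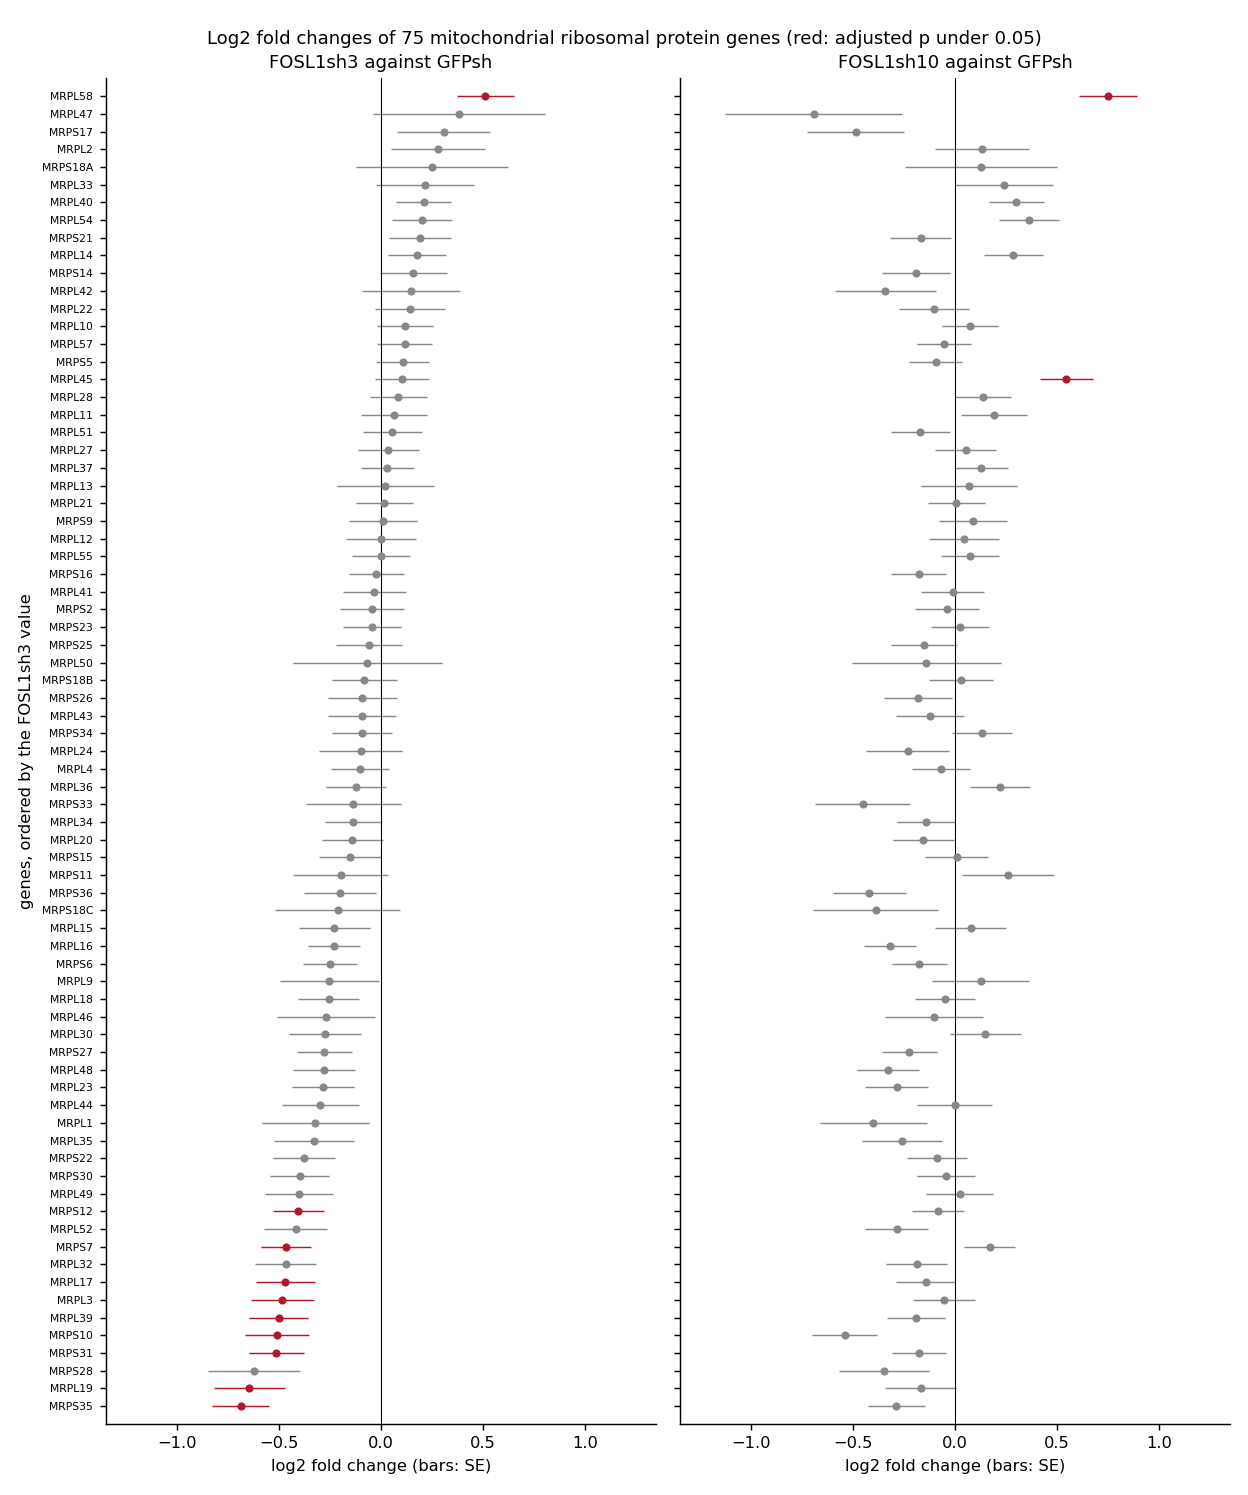
Log2 fold change against GFPsh of each tested gene with FOSL1sh3 (left) and FOSL1sh10 (right), with bars of 1 SE, in the order of the FOSL1sh3 values; red marks an adjusted p under 0.05. Red points stand at the lower end on the left (9 genes) and at higher values than GFPsh for MRPL58 on both sides and MRPL45 on the right. Both panels share the same GFPsh libraries.

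Among the 25 tested genes of the small subunit, 5 fell and none rose with FOSL1sh3, with a median log2 fold change of -0.14; the 5 are 20.0% of the 25, against 5.65% of all genes called lower. In this fit none was called with FOSL1sh10, where 1, MRPS10, was lower at an unadjusted p under 0.05 and the median was -0.17. Among the 49 tested genes of the large subunit, 4 fell and 1 rose with FOSL1sh3 (8.16% and 2.04%, against 5.65% and 5.21% of all genes, median -0.09). In the same subunit 2 rose with FOSL1sh10 (4.08%, against 3.13% of all genes, median -0.04). MRPS36, now known as a component of the ketoglutarate dehydrogenase complex, was counted in neither subunit and had a log2 fold change of -0.20 with FOSL1sh3 and -0.42 with FOSL1sh10, neither called. Of 45 tested genes with a bacterial counterpart 6 fell with FOSL1sh3 (13.3%) and none was called with FOSL1sh10. Of 29 found only in mitochondria 3 fell and 1 rose with FOSL1sh3 (10.3% and 3.45%), while 2 rose with FOSL1sh10 (6.90%).

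MRPS35, a protein of the small subunit found only in mitochondria (chromosome 12, bases 27710773 to 27756295), had the smallest adjusted p of the family with FOSL1sh3. Its level was 139.6, 172 and 136 CPM in FOSL1sh3 and 195, 215 and 181 CPM in FOSL1sh10, against 244, 219 and 259 CPM in GFPsh. The FOSL1sh3 libraries lay below all others, and the FOSL1sh10 libraries lay between them and the controls with no overlap on either side. The log2 fold change was -0.69 with FOSL1sh3 (SE 0.14, edgeR adjusted p = 0.00511), a level 1.61-fold lower, and -0.29 with FOSL1sh10 (SE 0.14, edgeR adjusted p = 0.265). The FOSL1sh3 call was kept under all 14 alternatives, with adjusted p up to 0.0327. Over both hairpins the log2 fold change was -0.49 (edgeR adjusted p = 0.0199), a call that was lost without GFPsh replicate 1 or 3 or FOSL1sh10 replicate 3 (adjusted p 0.0546 to 0.106) and after a trend with GC content and length was removed (log2 fold change -0.31, adjusted p 0.0952). MRPS35 was also the only gene of the family whose RefSeq promoter window held the loose AP-1 pattern TGANTCA, where N is any base. Its match reads TGATTCA, and no window of the family held the pattern with another base at N. Whether AP-1 binds there was not tested. The stretch is shown because of this match, from 250 bases before the RefSeq start to the first annotated exon base. It lies on the plus strand of GRCh38.p14 at chr12:27710582-27710772, with the match in capitals.
MRPS35: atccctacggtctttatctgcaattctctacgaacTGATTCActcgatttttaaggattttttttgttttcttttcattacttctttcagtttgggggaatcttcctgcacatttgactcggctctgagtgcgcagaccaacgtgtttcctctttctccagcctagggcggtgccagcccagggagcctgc

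MRPS10, the small-subunit counterpart of a bacterial protein in the head of the particle (chromosome 6, bases 42206801 to 42217865), stood at nearly the same level with either hairpin. It had 223, 197 and 139 CPM in FOSL1sh3 and 188, 168 and 190.1 CPM in FOSL1sh10, against 284, 268 and 244 CPM in GFPsh. All 6 hairpin libraries lay below all controls, and the FOSL1sh3 libraries were widely spread. The log2 fold change was -0.51 with FOSL1sh3 (SE 0.16, edgeR adjusted p = 0.0452), -0.54 with FOSL1sh10 (edgeR adjusted p = 0.0523, just outside the threshold) and -0.53 over both (edgeR adjusted p = 0.0255). The FOSL1sh3 call was lost without any 1 of the controls or without FOSL1sh3 replicate 3 (adjusted p 0.0662 to 0.168), and the call over both hairpins without any 1 control or FOSL1sh10 replicate 2 (0.0554 to 0.143). Removing the GC content and length trend ended both calls (log2 fold change -0.27 for FOSL1sh3 and -0.35 over both, adjusted p 0.259 and 0.105), and fitting FOSL1sh3 and GFPsh alone ended the FOSL1sh3 call (0.0893). With FOSL1sh10 the gene was called without the low-count filter, by DESeq2, with only the groups compared, with a replicate block and with TMM without ribosomal and mitochondrially encoded genes (adjusted p 0.00791 to 0.0476).

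MRPS7, which binds the RNA of the small-subunit head (chromosome 17, bases 75261674 to 75266373), was lower with FOSL1sh3 but not with FOSL1sh10. It had 118, 119.7 and 116 CPM in FOSL1sh3 and 189, 179.8 and 181 CPM in FOSL1sh10, against 168, 167 and 153 CPM in GFPsh. The 3 groups did not overlap, with FOSL1sh3 lowest and FOSL1sh10 highest. The log2 fold change was -0.47 with FOSL1sh3 (SE 0.12, edgeR adjusted p = 0.0229) and 0.17 with FOSL1sh10 (edgeR adjusted p = 0.507). Of the last 500 exonic bases 29.2% are shared with MIF4GD on the opposite strand. The FOSL1sh3 call was lost without GFPsh replicate 1 or 2 or FOSL1sh3 replicate 1 or 3 (adjusted p 0.0513 to 0.106), and with FOSL1sh3 and GFPsh fitted alone (0.0603).

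MRPS12, the counterpart of a bacterial protein at the decoding site (chromosome 19, bases 38930548 to 38933162), had 165, 152 and 166 CPM in FOSL1sh3 and 211, 210.1 and 183 CPM in FOSL1sh10, against 214, 215 and 211 CPM in GFPsh. The FOSL1sh3 libraries were below all others, and the log2 fold change was -0.41 (SE 0.13, edgeR adjusted p = 0.0477). This call was lost whenever any 1 of the 6 libraries was left out (adjusted p 0.0703 to 0.154), and without the low-count filter, with only the groups compared, with a replicate block and with TMM without ribosomal and mitochondrially encoded genes (0.0590 to 0.0987). MRPS31, a small-subunit protein found only in mitochondria (chromosome 13, bases 40729135 to 40771173), had 63.6, 63 and 59.3 CPM in FOSL1sh3 and 72.6, 81.2 and 80.8 CPM in FOSL1sh10, against 87.3, 79.5 and 98.6 CPM in GFPsh. Again the FOSL1sh3 libraries were lowest and close together, with a log2 fold change of -0.51 (SE 0.13, edgeR adjusted p = 0.0205), lost without GFPsh replicate 1 or 3 or FOSL1sh3 replicate 3 (adjusted p 0.0538 to 0.0873). After the trend with GC content and length was removed its log2 fold change was -0.18 and the call was lost (adjusted p 0.439).

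**Figure D4:**
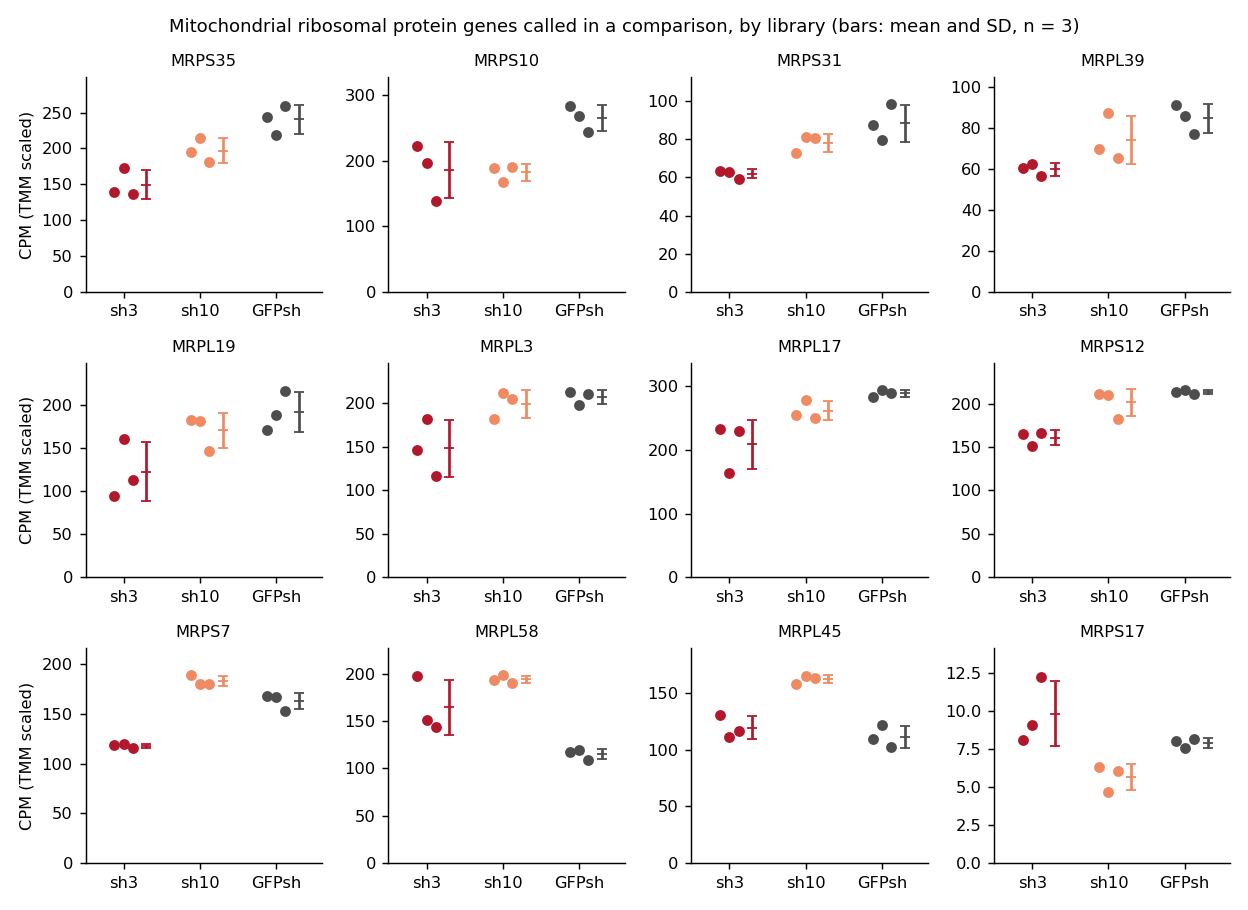
CPM (TMM scaled) of the 12 genes called in any comparison, by library (points) in FOSL1sh3, FOSL1sh10 and GFPsh, with mean and SD (n = 3) to the right of each group (sh3 and sh10 on the axis are FOSL1sh3 and FOSL1sh10). For 9 genes, from MRPS35 to MRPS7 in reading order, the FOSL1sh3 libraries lie below all controls; for MRPL58 all hairpin libraries lie above them.

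In the large subunit the clearest change was a rise. MRPL58, a peptidyl-tRNA hydrolase also known as ICT1 that frees stalled ribosomes and is built into the large subunit (chromosome 17, bases 75012670 to 75021261), had 198, 151 and 144 CPM in FOSL1sh3 and 193, 198 and 190.1 CPM in FOSL1sh10, against 117, 119 and 109 CPM in GFPsh. All hairpin libraries lay above all controls, with a tight FOSL1sh10 group and FOSL1sh3 replicate 1 well above the other two. The log2 fold change was 0.75 with FOSL1sh10 (SE 0.14, edgeR adjusted p = 0.00320), 1.68-fold, and 0.51 with FOSL1sh3 (SE 0.14, edgeR adjusted p = 0.0266), 1.43-fold. Over both hairpins it was 0.63 (edgeR adjusted p = 0.00563). The FOSL1sh10 call was kept under all 14 alternatives (adjusted p up to 0.0223) and the call over both hairpins under all 16 (up to 0.0427), whereas the FOSL1sh3 call was lost without any 1 control or without FOSL1sh3 replicate 1 (adjusted p 0.0616 to 0.127), and with FOSL1sh3 and GFPsh fitted alone (0.0569). No annotated gene shares its exon bases. The 250 bases before its RefSeq start, on the plus strand of GRCh38.p14 at chr17:75012420-75012669, hold the ETS letters CCGGAAG once on each strand, and are shown with these in capitals.
MRPL58: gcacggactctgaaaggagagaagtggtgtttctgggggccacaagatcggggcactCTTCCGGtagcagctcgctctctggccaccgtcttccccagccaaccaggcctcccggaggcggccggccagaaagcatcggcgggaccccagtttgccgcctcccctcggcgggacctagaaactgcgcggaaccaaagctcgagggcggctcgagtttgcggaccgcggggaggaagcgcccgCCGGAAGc

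MRPL45, which lines the end of the exit tunnel and ties the ribosome to the inner membrane (chromosome 17, bases 38297023 to 38323218), rose with FOSL1sh10. It had 131, 111 and 116 CPM in FOSL1sh3 and 158, 165 and 164 CPM in FOSL1sh10, against 109.7, 122 and 102 CPM in GFPsh. The FOSL1sh10 libraries were close together above all others, while FOSL1sh3 overlapped the controls. The log2 fold change was 0.54 with FOSL1sh10 (SE 0.13, edgeR adjusted p = 0.0189) and 0.10 with FOSL1sh3 (edgeR adjusted p = 0.656). The FOSL1sh10 call was lost without GFPsh replicate 1 or 3 or any 1 of the FOSL1sh10 libraries (adjusted p 0.0525 to 0.0913).

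The 4 large-subunit genes that fell with FOSL1sh3 were MRPL19, MRPL39, MRPL3 and MRPL17. MRPL19, the counterpart of a bacterial protein at the subunit interface (chromosome 2, bases 75646783 to 75690851), had 94.9, 161 and 113 CPM in FOSL1sh3 and 183, 182 and 147 CPM in FOSL1sh10, against 171, 189 and 216 CPM in GFPsh, with a log2 fold change of -0.65 (SE 0.17, edgeR adjusted p = 0.0246) for FOSL1sh3. The FOSL1sh3 libraries were spread widely but lay below the controls, and 17.2% of the last 500 exonic bases are shared with GCFC2. MRPL39, found only in mitochondria (chromosome 21, bases 25585656 to 25607517), had 60.3, 62.5 and 56.4 CPM in FOSL1sh3 and 69.7, 87.1 and 65.2 CPM in FOSL1sh10, against 91.2, 85.6 and 77.2 CPM in GFPsh, with a log2 fold change of -0.50 (SE 0.14, edgeR adjusted p = 0.0302). Its FOSL1sh3 libraries were tight and below all others. MRPL3, whose bacterial counterpart reaches towards the peptidyl transferase centre (chromosome 3, bases 131462212 to 131502983), had 147, 182 and 116 CPM in FOSL1sh3 and 181, 212 and 205 CPM in FOSL1sh10, against 213, 198 and 211 CPM in GFPsh. FOSL1sh3 lay below the controls while FOSL1sh10 overlapped them, and the FOSL1sh3 log2 fold change of -0.48 (SE 0.15, edgeR adjusted p = 0.0498) was the call nearest the threshold. MRPL17, near the exit of the tunnel in the bacterial particle (chromosome 11, bases 6680782 to 6683401), had 232, 164 and 229 CPM in FOSL1sh3 and 254, 278 and 251 CPM in FOSL1sh10, against 283, 293 and 289.7 CPM in GFPsh, with a log2 fold change of -0.47 (SE 0.14, edgeR adjusted p = 0.0440). Both hairpin groups lay below the very close controls.

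These 4 calls were lost without single libraries and under other alternatives. MRPL19 was lost without GFPsh replicate 2 or 3 or FOSL1sh3 replicate 1 or 3 (adjusted p 0.0556 to 0.0948). MRPL39 was lost without GFPsh replicate 1 or 2 or FOSL1sh3 replicate 1 or 3 (0.0628 to 0.143), MRPL3 without any 1 control or FOSL1sh3 replicate 1 or 3 (0.0843 to 0.181), and MRPL17 without any 1 control or FOSL1sh3 replicate 2 (0.0973 to 0.128). Removing the GC content and length trend ended all 4, with log2 fold changes of -0.42 for MRPL19 (adjusted p 0.117), -0.31 for MRPL39 (0.198), -0.29 for MRPL3 (0.187) and -0.46 for MRPL17 (0.0531). Fitting FOSL1sh3 and GFPsh alone ended MRPL39 (0.0501), MRPL3 (0.0927) and MRPL17 (0.0939), and TMM without ribosomal and mitochondrially encoded genes ended MRPL3 (0.0531) and MRPL17 (0.0551). With any 1 of the 6 libraries left out, between 2 and 11 genes of the family were called for FOSL1sh3: 2 without GFPsh replicate 1 or 2, 4 without GFPsh replicate 3 or FOSL1sh3 replicate 1, 3 without FOSL1sh3 replicate 3 and 11 without FOSL1sh3 replicate 2. With FOSL1sh3 and GFPsh fitted alone 3 were called, and 5 after a trend with GC content and length was removed. Calls over all genes also fell, from 1392 in the full fit to 966 and 850 in those fits. With 1 of the 6 libraries left out, calls over all genes ranged from 599 to 1803.

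Several genes just missed the threshold with FOSL1sh3. MRPL32, a large-subunit protein that the m-AAA protease processes before assembly, averaged 136 ± 13.9 CPM in FOSL1sh3 and 188 ± 30.5 CPM in GFPsh (log2 fold change -0.47, edgeR adjusted p = 0.0529). MRPS30, which sits in the large subunit, averaged 169 ± 20.8 CPM in FOSL1sh3 and 222 ± 15 CPM in GFPsh (log2 fold change -0.40, edgeR adjusted p = 0.0799). With FOSL1sh10, MRPL16, whose bacterial counterpart helps place tRNA at the peptidyl transferase centre, averaged 218 ± 13.1 CPM in FOSL1sh10 and 272 ± 17.5 CPM in GFPsh (log2 fold change -0.32, edgeR adjusted p = 0.166). MRPL54, a large-subunit protein found only in mitochondria, averaged 113 ± 9.72 CPM in FOSL1sh10 and 88.2 ± 9.13 CPM in GFPsh (log2 fold change 0.36, edgeR adjusted p = 0.170). MRPL32, MRPS30 and MRPL47 were chosen for description after their values were seen. None of the 5 genes at the top of the range per kb was called: MRPL14 had a log2 fold change of 0.18 with FOSL1sh3 and 0.29 with FOSL1sh10 (SE 0.14, edgeR adjusted p = 0.287). The other 4 lay between -0.12 and 0.19 with FOSL1sh3 and between -0.17 and 0.22 with FOSL1sh10. MRPL47, the counterpart of a bacterial protein at the tunnel exit, was the least repeatable, with 103, 32.9 and 28.2 CPM in FOSL1sh3 and 40.8, 12.3 and 25.6 CPM in FOSL1sh10, against 56.4, 22.1 and 48.3 CPM in GFPsh, all groups overlapping.

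Set against each other, the hairpins differed for 3 genes, MRPS17 higher with FOSL1sh3 and MRPS7 and MRPL45 lower (1.33% and 2.67% of the 75 genes; over all genes 12.7% were called, 5.74% higher and 7.00% lower). For MRPS7 the difference was -0.64 on the log2 scale (SE 0.12, edgeR adjusted p = 0.00299), a call kept under all 14 alternatives (adjusted p up to 0.0182). For MRPL45 it was -0.44 (SE 0.13, edgeR adjusted p = 0.0339), lost without any 1 library other than FOSL1sh3 replicate 1 (adjusted p 0.0695 to 0.134), and without the low-count filter, with only the groups compared and with the GC content and length trend removed (0.0568 to 0.0641). MRPS17, a small-subunit protein with a bacterial counterpart (chromosome 7, bases 55951819 to 55956501), had 8.11, 9.09 and 12.2 CPM in FOSL1sh3 and 6.28, 4.64 and 6.01 CPM in FOSL1sh10, against 8, 7.54 and 8.16 CPM in GFPsh. FOSL1sh3 lay above FOSL1sh10 by 0.80 on the log2 scale (SE 0.24, edgeR adjusted p = 0.0325), a call lost with library totals alone (adjusted p 0.0762), with only the groups compared (0.0526) and without FOSL1sh3 replicate 3 or any 1 FOSL1sh10 library (0.0521 to 0.142). At an unadjusted p under 0.05, 13 of the 75 genes were lower with FOSL1sh3 and 4 higher (17.3% and 5.33%; over all genes 14.8% and 13.3%). The median over the 75 genes was -0.05, against 0.00 over all genes.

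The summed mRNA of the family came to 12259, 11070 and 11109 CPM in FOSL1sh3 and 12677, 11768 and 11665 CPM in FOSL1sh10, against 12394, 12584 and 12259 CPM in GFPsh, where CPM is scaled by TMM. FOSL1sh3 replicate 1 matched the lowest control to the nearest whole CPM, and FOSL1sh10 replicate 1 was the highest of all. The difference from the control mean was -7.51% in FOSL1sh3 (exact permutation p = 0.1, two-sided, the smallest that 3 against 3 allows) and -3.02% in FOSL1sh10 (exact permutation p = 0.4). With DESeq2 size factors in place of TMM, it was -928 CPM in FOSL1sh3 (exact permutation p = 0.2) and -425 CPM in FOSL1sh10 (exact permutation p = 0.4). The FOSL1sh10 difference of -375 CPM was -681 CPM without FOSL1sh10 replicate 1 (exact permutation p = 0.1, the smallest that 2 against 3 allows) and -230.2 CPM without FOSL1sh10 replicate 3 (exact permutation p = 0.7). As a share of all counts the family held 1.13%, 1.06% and 1.06% in FOSL1sh3 and 1.29%, 1.29% and 1.25% in FOSL1sh10, against 1.24%, 1.24% and 1.21% in GFPsh. On that scale FOSL1sh10 lay above the controls, by 496 CPM (exact permutation p = 0.1), the opposite of the TMM-scaled difference, the FOSL1sh3 difference was -1455 CPM (-933 CPM with TMM), and the median of all genes for FOSL1sh10 stood at 0.11 on the log2 scale. The cytosolic ribosomal share, which was lower in FOSL1sh10 and higher in FOSL1sh3 than in GFPsh, moved with this difference between scales, and its part in it was not tested.

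**Figure D5:**
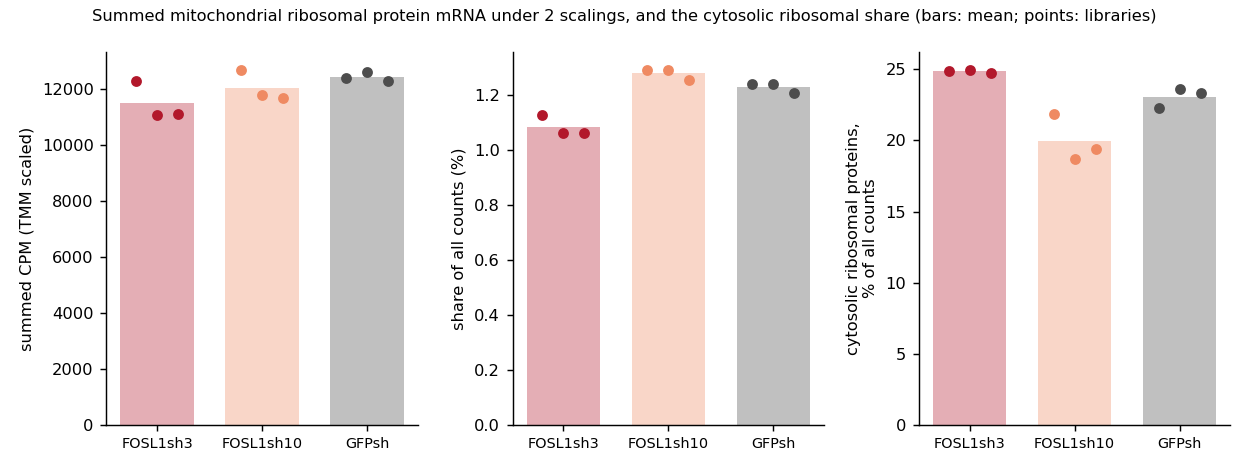
Summed level of the family in CPM scaled by TMM (left), its share of all counts (middle) and the share of genes for cytosolic ribosomal proteins (right), by library (points) with group means (bars). FOSL1sh10 lies mostly below GFPsh on the left and above it in the middle panel, while the cytosolic share is lowest in FOSL1sh10 and highest in FOSL1sh3.

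Within FOSL1sh3 the libraries were not alike. The median deviation of the 75 genes from their mean over all 9 libraries was 0.08, -0.06 and -0.17 on the log2 scale in FOSL1sh3 replicates 1, 2 and 3, and 0.08, -0.04 and -0.03 in FOSL1sh10, against 0.10, 0.08 and 0.08 in GFPsh. The first library of either hairpin thus stood at the level of the controls for the family as a whole. In FOSL1sh3 replicates 2 and 3, 51 and 56 of the 75 genes lay below their mean, against 21 to 32 in the controls. The summed mitochondrially encoded mRNAs, the templates of this ribosome, were 23918, 18737 and 16235 CPM in the FOSL1sh3 libraries and 14983, 15974 and 15743 CPM in FOSL1sh10, against 18111, 16844 and 19246 CPM in GFPsh. Of the 13 mRNAs 4 were called lower with FOSL1sh3 (30.8%) and 6 with FOSL1sh10 (46.2%), and none higher, against 5.65% and 2.15% of all genes called lower. The sum differed from the control mean by 8.65% in FOSL1sh3 (exact permutation p = 0.7) and by -13.8% in FOSL1sh10 (exact permutation p = 0.1). MT-ND5 and MT-ND4L, for subunits of respiratory complex I, had log2 fold changes of -0.82 and -1.12 with FOSL1sh3 (edgeR adjusted p = 0.00122 and 0.00191) and -1.09 and -1.32 with FOSL1sh10 (edgeR adjusted p = 7.4e-05 and 0.000415), calls kept under all 14 alternatives.

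Promoter windows from RefSeq (GRCh38.p14, 250 bases before to 50 after the start) were found for 69 of the 78 genes and searched on both strands for short motifs. The ETS letters CCGGAAG, bound by factors such as GABP, were in 29 windows (42.0%), against 14.4% of windows of protein-coding genes and 10.7% of all windows. The YY1 letters AAGATGGC were in 20 (29%), against 3.97% and 3.03%, and 16 of the 21 matches began within 50 bases of the start. At least 1 of the 2 motifs was in 41 windows, and 8 windows held both. The NRF1 motif was in 8 windows (11.6%, against 8.59% of coding and 6.28% of all windows) and the E-box CACGTG in 6 (8.70%, against 8.87% and 7.43%). The loose AP-1 pattern TGANTCA, with any base at N, was in 1 window, that of MRPS35, as TGATTCA (1.45%, against 5.73% and 7.76%). The CRE letters TGACGTCA were in none (0%, against 2.64% and 1.98%). A match is a string of letters and not a bound site, and its absence says only that these letters are not in the window.

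All 12 called genes had a window: 5 held the ETS letters, 4 the YY1 letters, 2 the NRF1 letters and 1 each the loose AP-1 pattern and the E-box. MRPS10 held both ETS and YY1 letters, and its upstream stretch is shown on the minus strand at chr6:42217866-42218111 with the ETS match in capitals.
MRPS10 upstream: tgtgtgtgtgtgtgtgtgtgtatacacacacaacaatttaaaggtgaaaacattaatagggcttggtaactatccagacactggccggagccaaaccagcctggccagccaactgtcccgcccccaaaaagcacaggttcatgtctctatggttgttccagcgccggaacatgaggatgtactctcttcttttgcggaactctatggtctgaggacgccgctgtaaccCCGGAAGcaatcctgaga
The YY1 letters of 3 called genes lie just after the start, and the 30 bases around them are set side by side, at chr6:42217834-42217863 on the minus strand for MRPS10, chr17:38297170-38297199 on the plus strand for MRPL45 and chr17:75261887-75261916 on the plus strand for MRPS7.
MRPS10: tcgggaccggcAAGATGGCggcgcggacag
MRPL45: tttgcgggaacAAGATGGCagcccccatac
MRPS7: cgtggccagccAAGATGGCtgcccccgcag
The letters hold ATG, and whether it is the start codon of these genes was not tested. A 4th called gene, MRPS12, has the letters at -212 from the start. Among called genes that share these letters, MRPS10, MRPS12 and MRPS7 fell with FOSL1sh3, where MRPL45 was not called. MRPL45 rose with FOSL1sh10, where MRPS10, MRPS12 and MRPS7 were not called in the full fit.

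Genes that work with the ribosome were read from the same fit. The 5 further proteins of the particle that bear other names (DAP3, PTCD3, AURKAIP1, CHCHD1 and GADD45GIP1) had median log2 fold changes of 0.02 with FOSL1sh3 and 0.01 with FOSL1sh10, and none was called by edgeR in either, nor was any under an unadjusted p of 0.05. Of all genes 5.65% were called lower with FOSL1sh3 and 2.15% with FOSL1sh10, beside which the shares that follow stand. Of 13 translation factors 1 fell with FOSL1sh3 (7.69%), GFM1, the elongation factor that moves the ribosome along. GFM1 had 19.8, 29.4 and 15.4 CPM in FOSL1sh3 and 31.2, 38.1 and 41.3 CPM in FOSL1sh10, against 42.9, 33.4 and 39.7 CPM in GFPsh. The FOSL1sh3 libraries were below all others (log2 fold change -0.85, SE 0.20, edgeR adjusted p = 0.0130), though the call was lost without GFPsh replicate 1 or FOSL1sh3 replicate 3 (adjusted p 0.0515 and 0.0634). Of 26 assembly and rRNA modification factors 1 fell with FOSL1sh3 (3.85%), MTERF3, at 25.1 ± 2.67 CPM in FOSL1sh3 and 38.7 ± 6.82 CPM in GFPsh (log2 fold change -0.63, edgeR adjusted p = 0.0268), and none was called with FOSL1sh10. The MTERF3 call was lost without GFPsh replicate 2 or 3 or FOSL1sh3 replicate 1 or 3 (adjusted p 0.0685 to 0.111) and with the GC content and length trend removed (log2 fold change -0.37, adjusted p 0.181).

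Of 21 mitochondrial aminoacyl-tRNA synthetases, which charge the tRNAs of the organelle, a different gene was lower with each hairpin (4.76% each, against 5.65% and 2.15% of all genes). VARS2, for valine, had 749, 545 and 849 CPM in FOSL1sh3 and 402, 383 and 434 CPM in FOSL1sh10, against 837, 795 and 882 CPM in GFPsh. Only the FOSL1sh10 libraries lay apart from all others, with a log2 fold change of -1.04 (SE 0.16, edgeR adjusted p = 0.000431), and the hairpins differed by 0.81 (edgeR adjusted p = 0.00258), both calls kept under all 14 alternatives. YARS2, for tyrosine, averaged 32.7 ± 8.43 CPM in FOSL1sh3 and 52.2 ± 7.13 CPM in GFPsh (log2 fold change -0.67, edgeR adjusted p = 0.0278), a call lost without GFPsh replicate 1 or 2 or FOSL1sh3 replicate 3 (adjusted p 0.0614 to 0.136). Of 20 genes for mitochondrial transcription and RNA handling 2 fell with FOSL1sh3 (10%) and none was called with FOSL1sh10. TFAM, which packages mitochondrial DNA and starts its transcription, averaged 48.5 ± 7.53 CPM in FOSL1sh3 and 73.8 ± 6.44 CPM in GFPsh (log2 fold change -0.61, edgeR adjusted p = 0.0192), and was lost without GFPsh replicate 1 or FOSL1sh3 replicate 3 (adjusted p 0.0744 and 0.101) and with the GC content and length trend removed (log2 fold change -0.28, adjusted p 0.223). TFB2M, its partner in opening the promoter, averaged 19.8 ± 2.98 CPM in FOSL1sh3 and 31.5 ± 6.13 CPM in GFPsh (log2 fold change -0.67, edgeR adjusted p = 0.0350), and was lost without GFPsh replicate 1 or 3 or FOSL1sh3 replicate 1 or 3 (adjusted p 0.0807 to 0.181) and with that trend removed (-0.44, adjusted p 0.179). Between hairpins GRSF1, a protein of mitochondrial RNA granules, averaged 69.5 ± 13.1 CPM in FOSL1sh3 and 108 ± 7.67 CPM in FOSL1sh10 (log2 difference -0.64, edgeR adjusted p = 0.00959), and was lost without FOSL1sh10 replicate 2 (adjusted p 0.0559). YARS2 differed by -0.83 (edgeR adjusted p = 0.00747, lost without FOSL1sh10 replicate 2 at an adjusted p of 0.0532).

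Proteins of the ribosome reach the matrix through the import machinery, and of 18 import and insertion genes 3 fell with FOSL1sh3 (16.7%, against 5.65% of all genes) and none was called with FOSL1sh10. TIMM23, the inner-membrane channel, averaged 94.5 ± 9.61 CPM in FOSL1sh3 and 131 ± 9.68 CPM in GFPsh (log2 fold change -0.48, edgeR adjusted p = 0.0300). TIMM17A of the same complex and the outer-membrane receptor TOMM70 had log2 fold changes of -0.50 and -0.53 (edgeR adjusted p = 0.0434 and 0.0444). With any 1 library left out, the adjusted p of these 3 genes reached 0.106, 0.179 and 0.199, and each was lost in at least 4 of the 6 cases. All 3 were also lost with FOSL1sh3 and GFPsh fitted alone (adjusted p 0.0674 to 0.0918), and TIMM17A and TOMM70 with the GC content and length trend removed (log2 fold changes -0.22 and -0.23, adjusted p 0.375 and 0.363). Of 11 tested regulators of mitochondrial biogenesis, GABPB1 fell with FOSL1sh3 (9.09%, against 5.65% of all genes) and TFE3 rose with FOSL1sh10 (9.09%, against 3.13%). GABPB1, a subunit of the ETS factor GABP, had 6.06, 9.09 and 2.67 CPM in FOSL1sh3 and 9.41, 17 and 12.9 CPM in FOSL1sh10, against 20.0, 23.1 and 16.5 CPM in GFPsh. The FOSL1sh3 libraries lay below all others, with a log2 fold change of -1.75 (SE 0.31, edgeR adjusted p = 0.00200) that was kept under all 14 alternatives, and -0.59 with FOSL1sh10 (edgeR adjusted p = 0.265). TFE3, a regulator of lysosomal and mitochondrial genes, had a log2 fold change of 0.60 with FOSL1sh10 (edgeR adjusted p = 0.0456) and was lost whenever any 1 library was left out (adjusted p 0.0882 to 0.167), and without the low-count filter, with a replicate block and with the GC content and length trend removed (0.0575 to 0.0944).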

How the data were processed

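RNA from EGI-1 cells (9 libraries) was profiled by MARS-seq, a 3′ method, after RNA of RQI above 7 was chosen, per the labels' protocols. The deposited values are raw counts per gene that the authors made with featureCounts 1.6.0 over exons of GENCODE 28 without strand, per the file headers, after alignment to hg38 with STAR 2.5.3a and quality control with FastQC 0.11.5, per the submitters' processing notes. The sources used here do not state whether reads sharing a molecular identifier were merged. Counting without strand means that overlapping and antisense genes are uncertain.

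Gene identifiers were matched to current gene symbols, with GENCODE 29 names where none was found. Gene types came from GENCODE 29, and 86 name matches that are not protein coding were set aside. All 9 libraries entered 1 fit in edgeR 4.0.16 (R 4.3.3): TMM scaling, a filter on low counts (10 per library, 15 in all), a quasi-likelihood F test with the group as the only term, and Benjamini-Hochberg adjustment over 12814 genes, with a call at an adjusted p under 0.05. The biological coefficient of variation was 16.4%. SEs were derived from the log2 fold change and the F statistic. The code was tested on simulated data. Summed levels were compared by exact permutation of libraries. Alternatives were other scalings, no filter, DESeq2 1.42.0, fits of the compared groups alone, a replicate block, single libraries left out and, added after the data were seen, a GC content and length trend and TMM without ribosomal and mitochondrially encoded genes.

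Named genes were FOSL1, genes of the family called in any of 4 comparisons, the 6 with the smallest p in each, the 5 highest and 5 lowest per kb in GFPsh, those below the filter, and up to 4 called genes of each other list. The family and all lists were chosen with earlier results of these data known.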

Additional observations from a re-analysis of the deposited data

Results flagged for a closer look

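For 3 genes the effects of the hairpins differed by a test of the difference itself, in the same fit and against the same controls. They are 4% of the 75 tested genes, against 12.7% of all genes called between hairpins. The MRPS7 call was kept under all 14 alternatives, that of MRPL45 under 6 and that of MRPS17 under 8. MRPS7 stood at -0.64 on the log2 scale in FOSL1sh3 relative to FOSL1sh10 (edgeR adjusted p = 0.00299), with the FOSL1sh3 libraries below and the FOSL1sh10 libraries above all GFPsh libraries. MRPL45 stood at -0.44 (edgeR adjusted p = 0.0339), with FOSL1sh10 above both other groups. MRPS17 stood at 0.80 (edgeR adjusted p = 0.0325), with FOSL1sh10 below both other groups at 4.64 to 6.28 CPM, and with 4 pseudogene loci in the annotation, whose part in the result was not tested.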

How the results depend on the processing

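The family's counts of calls changed with which libraries entered the fit and with other settings. Fitting only the groups compared gave 3 calls for FOSL1sh3 against GFPsh (10 in the full fit) and 1 for FOSL1sh3 against FOSL1sh10 (3). Over all genes these comparisons gave 966 and 1310 calls (1392 and 1633 in the full fit). For FOSL1sh10 against GFPsh this setting gave 3 calls in the family (2) and 1124 over all genes (676). Removing a GC content and length trend, an alternative chosen after seeing the data, left 5 calls for FOSL1sh3 and 850 over all genes (1392). Without the low-count filter FOSL1sh10 gave 4 calls (2), and 907 over all genes (676). Library totals alone gave 16 calls for FOSL1sh3 against FOSL1sh10, all lower, with medians of -0.22 there (all genes -0.17) and 0.019 for FOSL1sh10 against GFPsh (all genes 0.11), and turned the summed difference of FOSL1sh10 to 496 CPM. With library totals, calls over all genes were 480 higher and 932 lower for FOSL1sh3 (668 and 724 with TMM), 650 and 189 for FOSL1sh10 (401 and 275), and 385 and 1807 for FOSL1sh3 against FOSL1sh10 (736 and 897). With 1 library left out, calls in the family ranged from 2 to 11 for FOSL1sh3, 1 to 2 for FOSL1sh10, 1 to 4 for both hairpins and 1 to 6 between hairpins; over all genes they ranged from 599 to 1803, 347 to 422, 312 to 1002 and 712 to 1920 in that order. The family median then ranged from -0.20 to -0.057 for FOSL1sh3 and from -0.17 to -0.034 between hairpins. Fewer libraries or genes enter several of these fits; otherwise the cause was not tested.

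With a replicate block the family had 9 calls for FOSL1sh3, 3 for FOSL1sh10, 3 for both and 4 between hairpins. Calls over all genes were 1456, 695, 812 and 1673 in that order (1392, 676, 797 and 1633 without the block). The block ended the calls of MRPS12 and the marker KRT7 with FOSL1sh3, TFE3 with FOSL1sh10 and TIMM23 between hairpins, and added MRPS10 with FOSL1sh10. Same-numbered libraries correlated at -0.111 to 0.165 in their deviations from group means, and those with different numbers at -0.154 to 0.146. With 3 libraries a group, this cannot tell whether libraries of the same number share a culture or batch. Of the values of named genes under the alternatives, 854 kept their direction and side of the threshold, 199 lost the call and 13 gained it. Libraries of a group differed beyond sampling noise (chi-square per degree of freedom 9.03 to 30.2).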
